A study of Mus musculus with 14 samples.

Results

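Son, Scaf4, Hmgn1, Brwd1, Morc3, Chaf1b, Ets2 and Erg are 8 mouse genes that encode splicing factors, chromatin proteins and transcription factors, and all lie in the segment of chromosome 16 that Ts1Cje mice carry in 3 copies in place of 2. They were chosen by name, as every microarray probe that the deposited files assign to one of these symbols, with earlier results of these data known. The 8 genes had 18 probes of the 55681 on the array, 0 of them listed under Sfrs15, the older name of Scaf4. Of these 18 probes, 16 passed the filter on dim signals, which asks that all arrays of 1 group or more stand well above background, so that each of the 8 genes was measured, among 14165 genes in all. Gene expression was measured with 1 Agilent 1-colour array per sample in 4 groups of whole skeletal muscle. These were the extensor digitorum longus (EDL) of Ts1Cje mice (n = 3) and of WT mice (n = 3), and the soleus of Ts1Cje mice (n = 4) and of WT mice (n = 4). The WT mice were disomic littermates, all mice had the C57BL/6 background, and the age and sex of the animals are not given in the sources used here. Ts1Cje is a segmental trisomy that models part of Down syndrome: the extra segment is present in every cell, so a muscle sample reports on fibres and on all other cells of the tissue together.

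The arrays had 41.3% to 52.9% of probes well above background, 0 saturated spots and correlations of 0.979 to 0.988 between arrays of a group. Muscle fibre markers (Acta1, Ckm, Des, Mb, Tnnc2 and Ttn, 6 of 6 measured) had a mean log2 level between 9.29 and 9.78 on all 14 arrays. Slow fibre markers averaged between 1.55 and 5.10 on EDL arrays and between 8.92 and 9.51 on soleus arrays, as their labels have it. In the soleus, 3 of 8 fast fibre markers fell in Ts1Cje, and the part of fibre type in the results below was not tested. Soleus Ts1Cje replicate 1 shared slide 1 with the 6 EDL arrays, and the remaining 7 arrays were on slide 2. The 75th percentile of the processed signal ran from 62.4 to 103.6 on slide 1 and from 83.7 to 143.8 on slide 2. Within slide 2 it was 114.9 to 143.8 in Ts1Cje and 83.7 to 119.1 in WT. Levels are log2 of the processed signal, with the 75th percentile of the array set to 0, and changes are differences of log2 levels, Ts1Cje minus WT. The word rose or fell is used for a limma adjusted p under 0.05 over all genes. The p-values measure the spread between these samples, and the labels do not say how many animals a sample came from.

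Pre-mRNA splicing takes place in the nucleus as RNA polymerase II reads a gene. Son is a large protein of nuclear speckles, the stores of splicing factors, and Scaf4 binds the tail of RNA polymerase II and restrains early transcript ends. Hmgn1 binds nucleosomes and loosens chromatin, Brwd1 reads acetylated histones through its bromodomains, Morc3 is an ATPase of nuclear bodies that binds methylated histone H3, and Chaf1b is a subunit of CAF-1, which loads histones onto newly copied DNA. Ets2 and Erg are transcription factors of the ETS family, Ets2 a target of Ras and MAP kinase signalling and Erg a regulator of endothelial identity. In RefSeq's order of coding genes, Morc3 and Chaf1b are direct neighbours, as are Erg and Ets2, and Brwd1 and Hmgn1. The member probes span 6.11 Mb of chromosome 16 (mm9), with Scaf4 at the centromeric end and Hmgn1 at the telomeric end.

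The 3 genes whose levels rose, Son, Hmgn1 and Morc3, are shown here by the 250 bases upstream of their RefSeq start, to let their control regions be compared (GRCm38.p6, 5′ to 3′ on the strand of the gene). Capitals mark CCAAT and GGGCGG, the CCAAT box and the GC box, on either strand. These windows lie at chr16:91647574-91647823 on the plus strand for Son, chr16:96127726-96127975 on the minus strand for Hmgn1 and chr16:93831871-93832120 on the plus strand for Morc3.
Son: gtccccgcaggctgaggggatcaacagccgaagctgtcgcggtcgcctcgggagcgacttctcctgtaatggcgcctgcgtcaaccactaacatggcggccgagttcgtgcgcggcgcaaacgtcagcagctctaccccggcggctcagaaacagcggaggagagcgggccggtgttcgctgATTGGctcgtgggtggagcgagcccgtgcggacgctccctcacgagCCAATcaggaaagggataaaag
Hmgn1: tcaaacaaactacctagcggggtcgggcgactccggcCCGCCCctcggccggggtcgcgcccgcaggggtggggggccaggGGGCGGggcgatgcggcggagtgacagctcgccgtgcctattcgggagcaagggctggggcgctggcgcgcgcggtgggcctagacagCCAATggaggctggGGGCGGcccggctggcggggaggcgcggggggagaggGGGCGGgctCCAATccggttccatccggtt
Morc3: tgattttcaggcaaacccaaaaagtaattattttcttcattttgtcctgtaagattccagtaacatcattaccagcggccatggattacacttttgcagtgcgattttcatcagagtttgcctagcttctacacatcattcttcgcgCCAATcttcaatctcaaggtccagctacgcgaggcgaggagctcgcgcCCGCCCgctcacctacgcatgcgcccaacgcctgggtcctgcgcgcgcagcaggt
Son had 2 CCAAT boxes and no GC box, Hmgn1 had 2 and 4, and Morc3 had 1 of each. Their GC content was 64.8% for Son, 76.0% for Hmgn1 and 50.8% for Morc3, beside a median of 52.4% over the 32851 promoters of the table. The 8 genes had 11 listed starts, since Erg has 3 and Scaf4 has 2. A GC box stood in 8 of the 11 windows and in 32.7% of all promoters, and a CCAAT box in 5 of the 11 and in 33.8% of all. The 2 Scaf4 windows overlap, and counted by gene it was 7 of 8 for the GC box and 4 of 8 for the CCAAT box. The core letters of ETS factor sites, CCGGAA, stood on either strand in 1 of the 11 windows, that of Chaf1b, and in 12.0% of all. The CpG count per window ran from 2 to 42 with a median of 25.0, which 10.7% of all promoters reach. Both extremes of the group belong to genes not called on the probe that stands for them. Brwd1 had 42, and a downstream start of Erg had 2 and the 1 TATAAA of the group.

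All 8 genes had a higher mean level in Ts1Cje than in WT in both muscles. In the soleus, Son rose 1.59-fold, Hmgn1 1.58-fold and Morc3 1.67-fold, so that 3 of 8 were called, beside 0.176% of all genes called higher (25 of 14165). There 6 of 8 had an unadjusted p under 0.05, as had 1930 of all genes. In the EDL, 0 of 8 were called by limma, beside 0.00706% of all genes (1 of 14165), and 5 of 8 had an unadjusted p under 0.05 (Son, Hmgn1, Morc3, Ets2 and Erg), as had 409 of all genes. With both muscles averaged, 3 of 8 rose, again Son, Hmgn1 and Morc3, beside 0.261% of all genes called higher. By unadjusted p under 0.05 it was 7 of 8, beside 1342 of all genes. With the replicate numbers as a block in both muscles, 0 of 8 were called in the soleus or for the mean (limma adjusted p from 0.0837 to 0.178 for these 3 genes). Of all 14165 genes, that fit called 7 in the soleus and 5 for the mean. With a block in the EDL alone, where same-numbered samples deviated together but no label calls them pairs, the 3 genes were called in each. There 35 of all genes were called in the soleus and 46 for the mean. That block was chosen after seeing the data. The median log2 change of the 8 was 0.41 in the EDL and 0.55 in the soleus, with medians of 0.00 and 0.07 over all genes. For comparison, 3 copies over 2 is a log2 of 0.58, which lay inside the 95% interval of 7 of 8 genes in the EDL and of 8 of 8 in the soleus. The 3 soleus calls did not hold when the soleus arrays were fitted alone or on slide 2 alone (0 of 8 called in each). Those fits called 4 and 1 of all 14165 genes. On slide 2 the log2 changes were 0.69 for Son, 0.62 for Hmgn1 and 0.71 for Morc3.

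**Figure D1:**
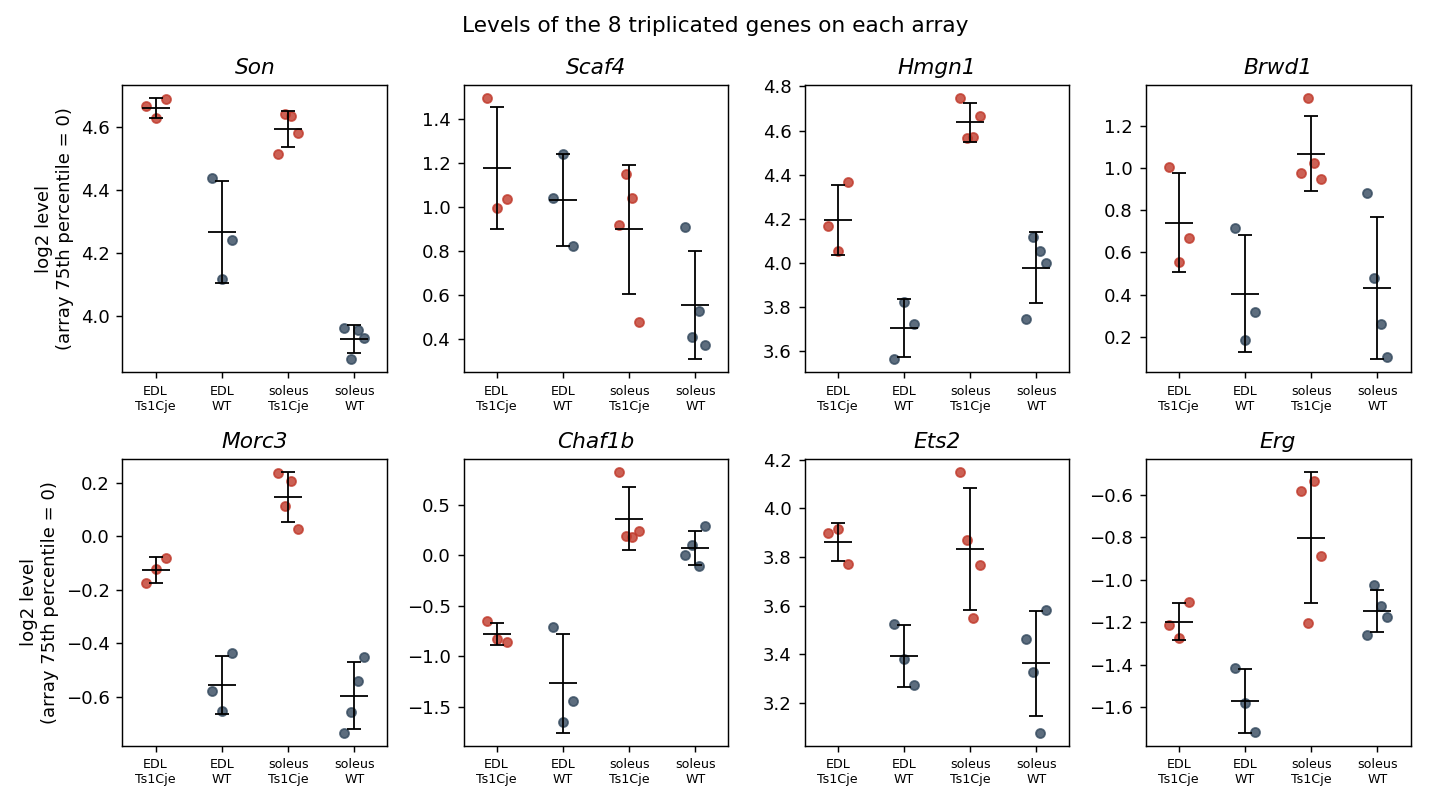
Log2 level (75th percentile of the array = 0) of each of the 8 genes on each of the 14 arrays, with Ts1Cje in red and WT in dark blue; points are arrays, horizontal bars are group means and whiskers are SD (n = 3 for the EDL and 4 for the soleus), and each panel has its own axis. The Ts1Cje and WT points of Son, Hmgn1 and Morc3 do not overlap in either muscle, while those of Scaf4 and Chaf1b overlap in both.

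Among the splicing genes, Son rose, and its change had the smallest standard error of the 8 genes. Its probe at chr16:91679290-91679349 (mm9, plus strand) read 4.66, 4.63 and 4.69 in Ts1Cje EDL, against 4.44, 4.12 and 4.24 in WT EDL. In the soleus it read 4.52, 4.64, 4.63 and 4.58 in Ts1Cje, against 3.96, 3.86, 3.95 and 3.93 in WT. The lowest Ts1Cje array exceeded the highest WT array in each muscle, and the Ts1Cje levels of both muscles lay within a range narrower than that of WT EDL alone. The log2 change was 0.40 ± 0.10 (SE) in the EDL (limma adjusted p = 0.695) and 0.67 ± 0.08 in the soleus (adjusted p = 0.00641). For the mean of both muscles it was 0.53 ± 0.06 (adjusted p = 0.00337). Leaving out any 1 of the 14 arrays kept the soleus change between 0.64 and 0.69 and kept its call in all 14 fits.

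Scaf4, by contrast, stood nearest to no change in the EDL and for the mean of both muscles, while in the soleus the changes of Chaf1b (0.29) and Erg (0.34) were no larger than its own. Its 1 probe, at chr16:90229636-90229694 (mm9, minus strand), read 1.497, 0.996 and 1.04 in Ts1Cje EDL, against 1.04, 1.24 and 0.82 in WT EDL. It read 0.92, 1.15, 1.04 and 0.48 in Ts1Cje soleus, against 0.91, 0.41, 0.53 and 0.37 in WT soleus. The genotypes overlapped in both muscles, with 1 low array in the Ts1Cje soleus and 1 high array in the WT soleus. Its log2 change was 0.14 ± 0.20 in the EDL (limma adjusted p = 0.99997) and 0.34 ± 0.18 in the soleus (adjusted p = 0.405). Without EDL Ts1Cje replicate 1, the EDL change was -0.02. For the mean of both muscles the 95% interval ran from -0.05 to 0.54, which holds 0 and stops short of 0.58.

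Of the chromatin genes, Hmgn1 was higher, on the probe that stands for it, in every Ts1Cje array than in any WT array of the same muscle. This probe, at chr16:96343196-96343255 (mm9, minus strand), read 4.17, 4.05 and 4.36 in Ts1Cje EDL, against 3.56, 3.82 and 3.72 in WT EDL. In the soleus it read 4.75, 4.57, 4.57 and 4.67 in Ts1Cje, against 3.75, 4.12, 4.05 and 4.00 in WT. Its log2 change was 0.49 ± 0.12 in the EDL (limma adjusted p = 0.718), 0.66 ± 0.11 in the soleus (adjusted p = 0.0247) and 0.57 ± 0.08 for the mean of both (adjusted p = 0.00759). Its soleus call was the least secure of the 3: it held in 7 of the 14 fits that each left out 1 array, and was lost without any 1 soleus array other than WT replicate 2 (adjusted p up to 0.0903). The call on the mean of both muscles held in all 14.

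Morc3 had the largest change of the 8 genes in the soleus and for the mean of both muscles. Its 1 probe, at chr16:93875950-93876009 (mm9, plus strand), read -0.18, -0.12 and -0.08 in Ts1Cje EDL, against -0.58, -0.65 and -0.44 in WT EDL. In the soleus it read 0.24, 0.11, 0.21 and 0.03 in Ts1Cje, against -0.74, -0.66, -0.54 and -0.45 in WT. Here too the genotypes did not overlap, and the Ts1Cje soleus stood above all the other groups. The estimate was a log2 change of 0.43 ± 0.11 in the EDL (limma adjusted p = 0.695), 0.74 ± 0.09 in the soleus (adjusted p = 0.00622) and 0.59 ± 0.07 for the mean (adjusted p = 0.00337).

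Brwd1 separated the genotypes in the soleus but was not called on the probe that stands for it. The probe that stands for the gene, at chr16:96214360-96214419 (mm9, minus strand), read 1.004, 0.55 and 0.67 in Ts1Cje EDL, against 0.71, 0.18 and 0.32 in WT EDL. In the soleus it read 0.98, 1.33, 1.02 and 0.95 in Ts1Cje, against 0.88, 0.48, 0.26 and 0.10 in WT. The EDL groups overlapped, and in the soleus every Ts1Cje array lay above every WT array by a narrow margin. The log2 change was 0.34 ± 0.21 in the EDL (limma adjusted p = 0.99997) and 0.64 ± 0.18 in the soleus (adjusted p = 0.234).

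Chaf1b was not called between the genotypes, and on the probe that stands for it the levels lay further apart between the muscles than between the genotypes. Its representing probe, at chr16:93906219-93906278 (mm9, plus strand), read -0.65, -0.83 and -0.86 in Ts1Cje EDL, against -0.71, -1.65 and -1.44 in WT EDL. It read 0.83, 0.20, 0.18 and 0.24 in Ts1Cje soleus, against 0.00, 0.10, -0.11 and 0.29 in WT soleus. In the EDL, 1 WT array lay among the Ts1Cje arrays and the other 2 well under them. In the soleus, 1 Ts1Cje array lay far above the others, which overlapped with WT. On the log2 scale its change was 0.49 ± 0.23 in the EDL (limma adjusted p = 0.99997) and 0.29 ± 0.20 in the soleus (adjusted p = 0.507). With the mean of both kept probes, the second of them mostly not well above background in WT, the order turned: the change between genotypes was 0.89 in the EDL and 0.87 in the soleus, and that between muscles -0.74 in Ts1Cje and -0.76 in WT. The second probe passed the filter only through its Ts1Cje groups, so the filter bears on these genotype changes. As CAF-1 acts in dividing cells, the markers of cycling cells are given beside it: 7 of 11 were measured (Top2a, Ccnb1, Ccna2 and Cdk1 were too dim), and 0 were called by limma in either muscle (0 in the EDL and 1 in the soleus had an unadjusted p under 0.05). Their median log2 change was -0.30 in the EDL and 0.65 in the soleus, with 3 of 7 positive in the EDL and 7 of 7 in the soleus, and their part in the Chaf1b values was not tested. Among them, Rrm2, which makes nucleotides for DNA synthesis, had a log2 change of 0.68 ± 0.23 in the soleus (adjusted p = 0.285).

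The ETS factors were close to each other in size of change and neither was called. Ets2, measured by 1 probe at chr16:95942227-95942286 (mm9, plus strand), read 3.90, 3.92 and 3.77 in Ts1Cje EDL, against 3.52, 3.38 and 3.27 in WT EDL. It read 4.15, 3.87, 3.55 and 3.77 in Ts1Cje soleus, against 3.46, 3.33, 3.08 and 3.58 in WT soleus. The groups did not overlap in the EDL, while for the soleus the lowest Ts1Cje array fell below the highest WT array. The log2 change was 0.47 ± 0.16 in the EDL (limma adjusted p = 0.99997) and 0.47 ± 0.14 in the soleus (adjusted p = 0.254). For the mean of both muscles it was 0.47 ± 0.11 (adjusted p = 0.134).

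The Erg probe that stands for the gene was well above background on all 14 arrays. This probe, at chr16:95581954-95582013 (mm9, minus strand), read -1.21, -1.28 and -1.11 in Ts1Cje EDL, against -1.42, -1.58 and -1.71 in WT EDL. It read -0.58, -1.20, -0.54 and -0.89 in Ts1Cje soleus, against -1.26, -1.02, -1.12 and -1.17 in WT soleus. In the EDL every Ts1Cje array was above every WT array, and in the soleus 1 low Ts1Cje array lay among the WT arrays. The log2 change was 0.37 ± 0.16 in the EDL (limma adjusted p = 0.99997) and 0.34 ± 0.14 in the soleus (adjusted p = 0.330). In bulk muscle, a change in the number of cells of a type and a change in RNA per cell cannot be told apart. Endothelial markers (9 of 9 measured) had 0 limma calls in either muscle (0 in the EDL and 1 in the soleus had an unadjusted p under 0.05) and a median log2 change of 0.03 in the EDL and -0.03 in the soleus. Their mean level lay between 2.14 and 2.27 in Ts1Cje EDL and between 2.07 and 2.25 in WT EDL, and between 2.17 and 2.50 in Ts1Cje soleus and between 2.19 and 2.48 in WT soleus.

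**Figure D2:**
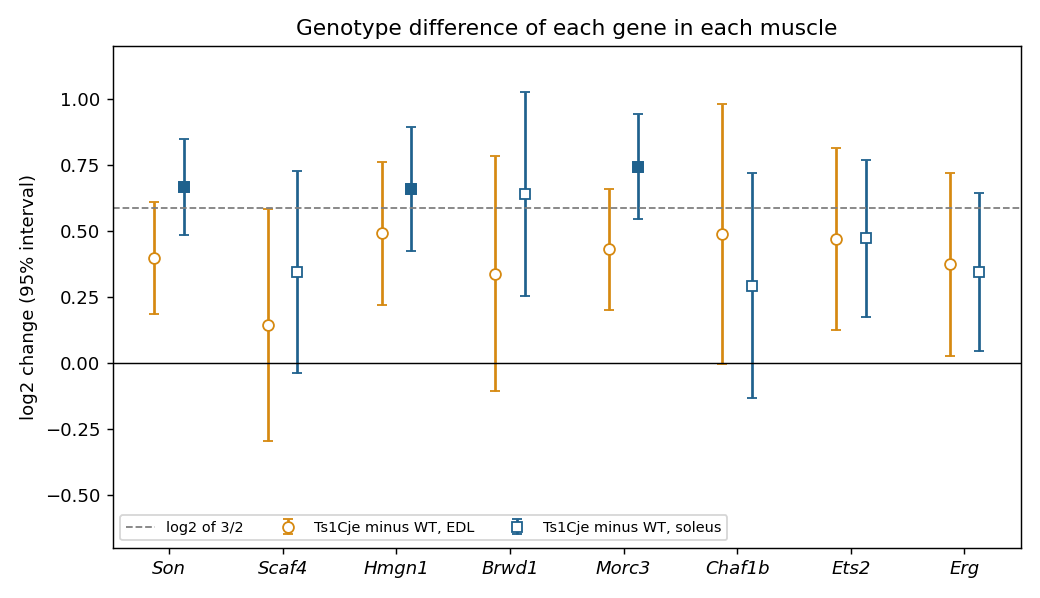
Log2 change, Ts1Cje minus WT, of each of the 8 genes in the EDL (circles) and in the soleus (squares), with 95% intervals from limma; filled markers are called, and the dashed line is the log2 of 3/2, 0.58. All 16 values lie above 0, and the filled ones are Son, Hmgn1 and Morc3 in the soleus.

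Counted by arrays that do not overlap, 5 of 8 genes had every Ts1Cje array above every WT array in the EDL (Son, Hmgn1, Morc3, Ets2 and Erg), beside 2.82% of all genes. In the soleus it was 4 of 8 (Son, Hmgn1, Morc3 and Brwd1), beside 6.11% of all genes. None of the 8 had all Ts1Cje arrays below WT in either muscle, beside 2.77% of all genes in the EDL and 2.29% in the soleus.

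Whether the change differed between the muscles was tested as the EDL change minus the soleus change. By limma 0 of 8 differed, as did 0 of all 14165 genes (a background of 0%), and 1 of 8 had an unadjusted p under 0.05, beside 454 of all genes. That gene was Morc3, with a difference of -0.31 ± 0.14 (95% interval -0.62 to -0.01, adjusted p = 0.987). Son came next at -0.27 ± 0.13 (interval -0.55 to 0.01). The change was smaller in the EDL for 6 of 8 genes, while Chaf1b (0.19) and Erg (0.03) had the opposite sign. For Ets2 the difference was -0.0027, with an interval of -0.46 to 0.45. These intervals leave room for differences of the size of the changes themselves, so that the calls in the soleus and their absence in the EDL do not show a difference between muscles.

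The muscles themselves were compared within each genotype, as EDL minus soleus. In Ts1Cje, Chaf1b was lower in the EDL by 2.21-fold (log2 change -1.14 ± 0.21, limma adjusted p = 0.00152) and Hmgn1 by 1.36-fold (log2 change -0.44 ± 0.12, adjusted p = 0.0129). These 2 of 8 stand beside 29.9% of all genes called in either direction. In WT, Chaf1b was lower in the EDL by 2.53-fold (log2 change -1.34 ± 0.21, adjusted p = 0.000545) and Erg by 1.34-fold (log2 change -0.42 ± 0.15, adjusted p = 0.0481), and Son was higher by 1.26-fold (log2 change 0.34 ± 0.09, adjusted p = 0.0142). These 3 of 8 stand beside 29.8% of all genes. Every EDL array was below every soleus array for Hmgn1, Morc3 and Chaf1b in Ts1Cje, beside 15% of all genes. In WT this held for Chaf1b and Erg, beside 13.1%, and Son was the 1 gene with every EDL array above, beside 25.8%. All WT EDL arrays were on slide 1 and all WT soleus arrays on slide 2, so slide and muscle cannot be told apart there. With the slide as a block 1 of 8 was called in each genotype, beside 1367 of all 14165 genes in WT and 2068 in Ts1Cje. In that fit 1 array, soleus Ts1Cje replicate 1, alone sets the slide term, so it cannot decide these calls. The WT change of the Chaf1b probe was -1.96 there. The Son call was lost without EDL WT replicate 1 (log2 change 0.25), the Hmgn1 call without EDL Ts1Cje replicate 2 (-0.37), and the Erg call held in 3 of the 14 fits that left out 1 array. With the mean of all kept probes in place of 1, neither Chaf1b call held (log2 change -0.74 in Ts1Cje and -0.76 in WT, adjusted p = 0.0781 and 0.0752). That mean takes in a second Chaf1b probe, mostly not well above background in WT, so it cannot decide whether the Chaf1b calls hold.

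Son, Hmgn1, Brwd1, Chaf1b and Erg had more than 1 probe, which lets the change be read at several places of a gene. Of the 16 kept probes, 14 were well above background on every array, and these had a positive change in both muscles. The other 2, 1 of Brwd1 and 1 of Chaf1b, passed the filter only through Ts1Cje groups, where they are high, so that the filter bears on the sign of their change, and they enter no count here. By limma over the 25190 kept probes of the array, 4 of the 14 rose for the mean of both muscles, beside 0.171% of all probes called higher, and they belong to Son, Hmgn1, Morc3 and Brwd1. In the soleus the same 4 probes rose, beside 0.115% of all probes, and in the EDL 0 of 14 were called, beside 0.00794% (7 of 14 had an unadjusted p under 0.05).

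The 3 Son probes spread over 16.4 kb and gave alike changes. For the mean of both muscles the log2 changes, in order along the gene, were 0.52 ± 0.14, 0.55 ± 0.10 and 0.53 ± 0.07. The first, A_51_P148264, differed from the last, A_55_P1952793, by -0.01 ± 0.15, and the middle one, A_55_P1952788, by 0.02 ± 0.08. In the soleus, every Ts1Cje array was above every WT array for each of the 3. The 2 Hmgn1 probes, 0.760 kb apart, gave 0.45 ± 0.13 and 0.57 ± 0.08, a difference of -0.12 ± 0.14. The first, A_55_P1989102, was not called in the soleus (0.52 ± 0.17, limma adjusted p = 0.285), where its groups overlapped: Ts1Cje replicate 3 read 1.004 and WT replicate 4 read 1.06.

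Brwd1 had 5 probes over 74.2 kb, and they did not all read alike. The probe nearest to the start of the gene, A_52_P301223 at chr16:96288528-96288587 (mm9, minus strand), read 0.25, -0.04 and 0.47 in Ts1Cje EDL, against -0.20, -0.25 and -0.39 in WT EDL. It read 0.996, 1.13, 0.998 and 0.84 in Ts1Cje soleus, against 0.25, 0.18, 0.06 and 0.30 in WT soleus. The groups did not overlap in either muscle, unlike those of the probe that stands for the gene. This probe rose in the soleus (log2 change 0.79 ± 0.12, limma adjusted p = 0.0194) and for the mean of both muscles (0.65 ± 0.09, adjusted p = 0.00997), though with the slide as a block its soleus adjusted p was 0.0612. Its change exceeded that of the representing probe, A_51_P181538, by 0.16 ± 0.14 for the mean of both muscles, a difference of about its own error, with a smaller SE of its own.

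Between the muscles the same probe of Brwd1 was lower in the EDL, by a log2 change of -0.77 ± 0.13 in Ts1Cje (limma adjusted p = 0.000708) and of -0.48 ± 0.13 in WT (adjusted p = 0.0141). The representing probe, at the other end of the gene, had -0.33 ± 0.19 in Ts1Cje and -0.03 ± 0.19 in WT, and neither was called. Of the 14 probes, 3 were called lower in the EDL in Ts1Cje, beside 10.9% of all probes, and 2 in WT, beside 9.6%, the Brwd1 probe among them in each. Another probe, A_55_P1998721, was the 1 of the 14 with almost no change in the soleus, at 0.03 ± 0.25, though it stood at 0.56 ± 0.29 in the EDL. In the soleus its change was lower than that of the representing probe by 0.61 on the log2 scale (SE 0.23). Probe A_52_P223521 lay between, at 0.40 ± 0.25 in the EDL and 0.56 ± 0.21 in the soleus, and its groups overlapped in both. The dim probe A_55_P2065394 was well above background on 10 of the 14 arrays, and on all arrays of a group only in Ts1Cje soleus. It read -2.16, -1.15, -1.48 and -1.45 in Ts1Cje soleus, against -2.21, -2.24, -2.38 and -3.89 in WT soleus, and its fitted change was 1.12 there and 0.24 in the EDL, given with no test. The deposited annotation assigns the Brwd1 probes to 5 different transcripts, and which of them muscle makes was not tested.

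Chaf1b had 2 kept probes whose annotated positions overlap by 10 bases at the end of the gene. The oligos are not identical within that overlap, and the part of this in their signals was not tested. The second, A_51_P367310, read -1.91, -2.27 and -2.89 in Ts1Cje EDL, against -2.87, -4.35 and -3.74 in WT EDL. It read -0.96, -2.08, -2.72 and -2.32 in Ts1Cje soleus, against -3.22, -3.91, -3.47 and -3.30 in WT soleus. Its signal cleared the background on 7 of 7 Ts1Cje arrays (3 in the EDL and 4 in the soleus) but on 2 of 7 WT arrays (1 in each muscle), so that it passed the filter through its Ts1Cje groups and 5 of 7 WT readings were not well above background. Its fitted log2 change for the mean of both muscles, given with no test, was 1.38, and 0.28 with normexp background correction, which adds an offset of 50 to the signals. Of the 2 probes that did not pass the filter, 1 of Chaf1b and 1 of Erg were well above background on 0 and 4 of the 14 arrays.

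**Figure D3:**
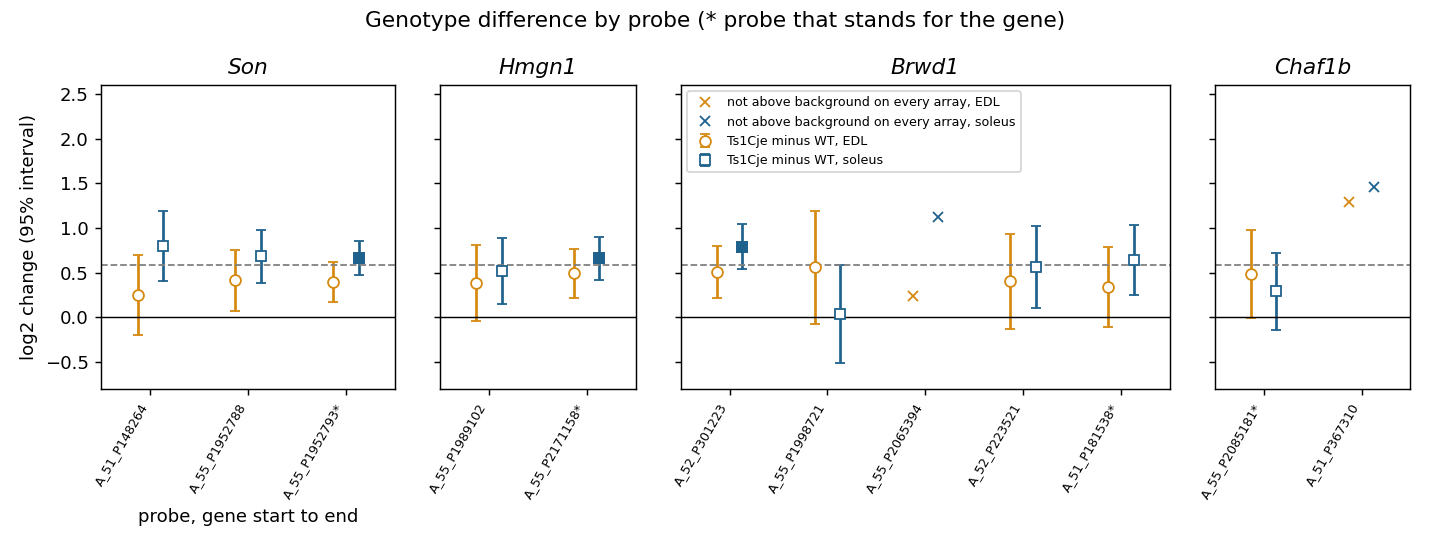
Log2 change, Ts1Cje minus WT, of each kept probe of the 4 genes with more than 1, ordered from the start to the end of the gene, in the EDL (circles) and the soleus (squares), with 95% intervals; crosses without intervals are the 2 probes not well above background on every array, filled markers are called over all probes, the asterisk marks the probe that stands for the gene, and the dashed line is 0.58. The Son probes lie close together, while those of Brwd1 run in the soleus from 0.03 to 0.79 without the crosses.

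The other genes of the triplicated segment are set beside the 8. Of 13 other nuclear regulators there, 9 were measured, with median log2 changes of 0.65 in the EDL and 0.71 in the soleus, and 8 of 9 positive in each. Runx1, a transcription factor known from denervated muscle and blood formation, rose in the soleus (log2 change 1.06 ± 0.17, limma adjusted p = 0.0219). Runx1 and Donson, a replication fork protein, rose for the mean of both muscles (0.89 ± 0.13 and 0.93 ± 0.17). Of 47 further genes of the segment, 36 were measured, with median log2 changes of 0.64 in the soleus, 0.52 in the EDL and 0.58 for the mean of both. In the soleus 14 rose, beside 0.176% of all genes, and for the mean 18, beside 0.261%. In the EDL 0 rose, beside 0.00706% called in either direction. An unadjusted p under 0.05 was had by 26, 24 and 28, beside 1930, 409 and 1342 of all 14165 genes. Whether any passed the filter only through Ts1Cje groups was not counted. The changes of the 8 genes, from 0.29 to 0.74 in the soleus, lie inside the range of these 36, from -0.37 to 1.22.

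Their relatives outside the triplicated segment were counted in the same way. Of 27 disomic members of the same families (Hmgn, Brwd and Phip, Morc, Chaf1a, Scaf and other ETS factors), 25 were measured and 0 were called by limma in the EDL, the soleus or the mean of both (2, 5 and 3 had an unadjusted p under 0.05). Of all 14165 genes, 409, 1930 and 1342 had such a p. Their median log2 changes were 0.04 in the EDL and 0.10 in the soleus, with 14 and 15 of 25 positive, close to the 0.00 and 0.07 of all genes. Phip, a relative of Brwd1, had the smallest p for the mean of both muscles, at a log2 change of -0.41 ± 0.11 (adjusted p = 0.262). Elk4, an ETS factor that partners serum response factor, stood at -2.11 ± 0.65 in the soleus and Hmgn2 at 0.43 ± 0.13 (adjusted p = 0.272 for each). Of 15 nuclear regulators in the disomic part of chromosome 16, 14 were measured and 0 called by limma (1 in the EDL and 2 in the soleus had an unadjusted p under 0.05), with medians of -0.01 in the EDL and 0.02 in the soleus. Gabpa, which is in both lists, had -0.33 ± 0.15 in the EDL (adjusted p = 0.99997).

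**Figure D4:**
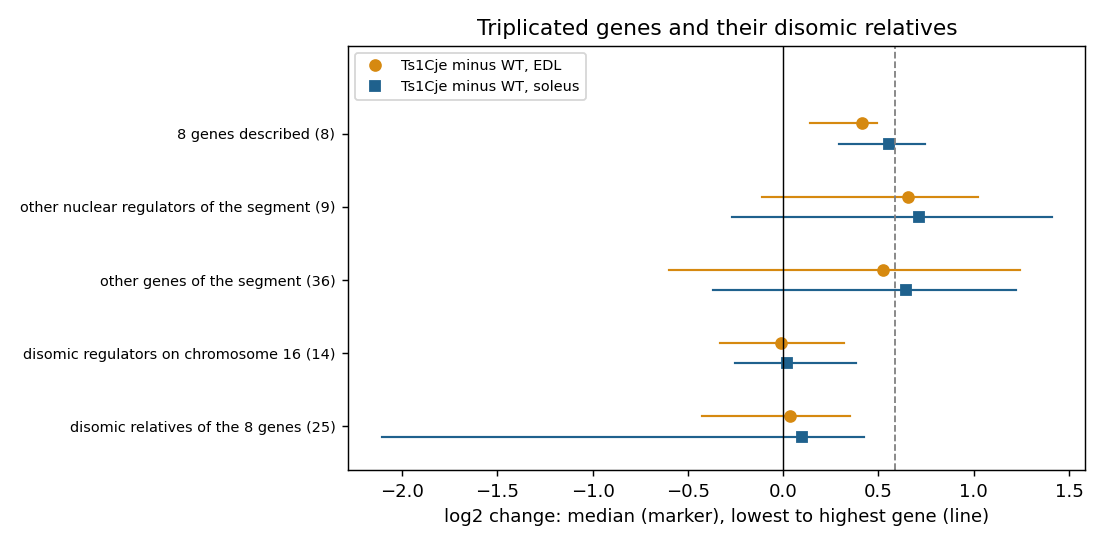
Median (marker) and range from the lowest to the highest gene (line) of the log2 change, Ts1Cje minus WT, in the EDL (circles) and the soleus (squares) for the 8 genes and 4 comparison lists, with the number of measured genes in brackets and a dashed line at 0.58. The triplicated lists have medians between 0.41 and 0.71, and the disomic lists between -0.01 and 0.10.

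Genes that work with the 8 were counted as well, and 0 of the 44 measured in the next 3 lists were called by limma in either muscle. The unadjusted counts below stand beside 409 of 14165 genes in the EDL and 1930 in the soleus. Of 23 genes of nuclear speckles and splicing, 22 were measured, with medians of -0.09 in the EDL (3 of 22 positive, 1 with an unadjusted p under 0.05) and 0.07 in the soleus (14 of 22 positive, 3 with an unadjusted p under 0.05). The smallest p there belonged to U2af2, a splice site factor, in the EDL (-0.51 ± 0.22, limma adjusted p = 0.99997) and to Ddx39b, an RNA helicase of splicing and export, in the soleus (0.27 ± 0.09, adjusted p = 0.282). Of 13 genes of nucleosome assembly and histone chaperones, 12 were measured, with medians of -0.05 in the EDL and 0.19 in the soleus (0 and 2 with an unadjusted p under 0.05), and Rbbp4, another CAF-1 subunit, stood at 0.28 ± 0.09 in the soleus (adjusted p = 0.271). Of 10 endothelial targets of ERG, 10 were measured, with medians of 0.08 in the EDL and 0.25 in the soleus (0 and 4 with an unadjusted p under 0.05). Eng, an endothelial receptor of the TGF-beta family, had the smallest p of these in both, at 0.31 ± 0.15 and 0.46 ± 0.13 (adjusted p = 0.99997 and 0.232). Cdh5, Cldn5, Esam and Tek are in this list and also among the endothelial markers above, so these lists are not independent.

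Finally, the genes whose pattern was most like each member over the 14 arrays were found by Pearson correlation, after the mean of each muscle had been subtracted from every array. All arrays share the genotype difference, so these values describe the samples and carry no test. For Son the closest were Synj1 (r = 0.97), Ifnar1 (0.95) and Gart (0.94), and for Hmgn1 Runx1 (0.98), Smim11 (0.98) and Psmg1 (0.97), all of them on chromosome 16. For Morc3 they were Ifnar2 (0.96), Dnah11 (0.95) and LOC102641578 (0.95), of which Dnah11 is on chromosome 12. The log2 change of Dnah11 was 8.84 in the EDL and 9.11 in the soleus, beside 0.43 and 0.74 for Morc3, so only the pattern is alike. The genes not called on the probe that stands for them were most like genes elsewhere, with 1 exception. A930006K02Rik, closest to Ets2 (0.90), is on chromosome 16. For Brwd1 the closest was Dido1 (0.94), for Scaf4 Pdia3 (0.92), for Erg Sh2d7 (0.86) and for Chaf1b Rnf215 (0.84).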

How the data were processed

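Total RNA of 14 muscle samples was hybridised to 1-colour Agilent arrays. Spots were read by the authors in Agilent Feature Extraction, which the file headers give as version 11.5.1.1 and the submitters' processing notes as 9.1. The deposited scanner files hold the processed intensity, background-subtracted per the file headers, the median spot and background intensity, and flags of 0 or 1 for saturated spots and spots above background. Normalized log2 values in a further table that the authors deposited correlated with the values used here at 0.9999 or more on each array. Probe positions are mm9, per the file headers.

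Here the processed signal was averaged over spots of a probe, leaving out spots flagged as outliers unless all were flagged. The log2 of this average was taken and the log2 75th percentile of the array subtracted. Symbols were updated through RefSeq IDs. Of several kept probes, the one of highest mean stood for the gene. limma 3.58.1 (R 4.3.3) fitted 1 mean per group to all 14 arrays (10 residual and 2.81 prior degrees of freedom), with two-sided tests and Benjamini-Hochberg adjustment over 14165 genes or, for probes, over 25190 probes. It was checked on simulated data. Same-numbered EDL samples of both genotypes deviated together (correlations of 0.12 to 0.40 in 3 pairs), so their numbers were used as a block, which changed no EDL call. The labels do not say that a number marks a pair. Soleus samples of different numbers had correlations of -0.17 to 0.43, so deviating together does not show a pair.

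The 8 genes are all named, with all kept probes. Of each other list, called genes (at most 4 per comparison) or otherwise the 2 of smallest p could be named, and some are given as counts only. The 3 genes most correlated with each of the 8 were found. The 8 genes and the lists were chosen with earlier results of these data known. Promoters are RefSeq's (GRCm38.p6). The alternatives were normexp background correction, quantile normalization, the authors' table, other filters, the mean of all probes, each muscle alone, the slide, replicate blocks, array weights, a trended robust variance, and leaving out each array. The number of arrays limits the precision.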

Additional observations from a re-analysis of the deposited data

Results flagged for a closer look

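Of 32 groups of 4 soleus arrays examined, 1 for each kept probe and genotype, 3 held an array far from the other 3, where chance gives about 1 in 20. The Son probe A_55_P1952788 read -1.06 on soleus WT replicate 2, below the other WT arrays (-0.55, -0.59 and -0.58). The Brwd1 probe A_55_P2065394 read -3.89 on soleus WT replicate 4, where it was not well above background, against -2.21, -2.24 and -2.38 on the other WT arrays. The Chaf1b probe A_55_P2085181 read 0.83 on soleus Ts1Cje replicate 1, the 1 soleus array on slide 1, above the other Ts1Cje arrays (0.20, 0.18 and 0.24), and without it the soleus change of Chaf1b was 0.14 in place of 0.29.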

How the results depend on the processing

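Son, Hmgn1 and Morc3 kept their calls for the mean of both muscles under every alternative other than the replicate block, and their soleus calls depended on more. The count of soleus calls, 3 of 8, was 1 with no filter on dim probes, and 0 in the soleus alone, within slide 2 and with the replicate block. Over all genes, no filter called 6 of 24519 in the soleus, and the other fits called 4, 1 and 7 of 14165. Under 13 settings other than leaving out 1 array, the soleus call held in 10 for Morc3, 8 for Son and 7 for Hmgn1. With normexp the Son call in the soleus was lost (adjusted p = 0.0609), with Morc3 and Hmgn1 called. With the replicate block, 0 of 8 were called for the mean of both muscles and 0 of the 14 probes well above background on every array (4 without it), and no EDL call changed. For the mean, that block called 5 of all 14165 genes. Same-numbered soleus samples did not deviate together (correlations of -0.29 to 0.01). With a block on the EDL numbers alone, chosen after seeing the data, 3 of 8 genes and 4 probes were called. The block was not run between muscles, since a number does not pair the muscles. With no filter, 0 of these 14 probes were called. For the muscles in WT, 3 calls became 1 with normexp, no filter, the mean of all kept probes or the slide as a block, 4 with array weights, and 1 to 4 without 1 array. Over all genes in WT, normexp called 2278 of 14165, no filter 3130 of 24519, and the mean of all kept probes 4126 of 14165. The slide block called 1367, array weights 4592, and the fits without 1 array 3222 to 4330. In Ts1Cje, 2 became 1 with the mean of all kept probes or the slide as a block, 4 with array weights, and 1 to 3 without 1 array. Of all 14165 genes, these settings called 4228, 2068, 4706, and 2956 to 4215 in Ts1Cje.

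Of 1192 values of single genes under alternatives, 1095 kept direction and side of the threshold, 50 lost and 10 gained a call, and 37 changed sign, 0 of them called. Those that changed sign in the EDL minus soleus difference were Chaf1b at -0.051 with normexp, Ets2 at 0.061, 0.10 and 0.026 with quantile normalization, the slide block and array weights (-0.10 to 0.10 without 1 array), and Erg at -0.050 with quantile normalization (-0.10 to 0.12). Between muscles in WT, Brwd1 stood at 0.10 with the slide block and 0.059 with array weights (-0.18 to 0.12), Morc3 at -0.081 with the slide block (-0.019 to 0.089), and Ets2 at -0.083, -0.17 and -0.39 with normexp, quantile normalization and the slide block (-0.066 to 0.10). In Ts1Cje, Son stood at -0.10, -0.069 and -0.074 with normexp, quantile normalization and the mean of all kept probes, and Ets2 at -0.16, -0.11 and -0.29 with normexp, quantile normalization and the slide block (-0.069 to 0.13). In the EDL, Scaf4 lay between -0.017 and 0.25 without 1 array. The cause was not tested. Signal over background limits 2 of the 16 kept probes, whose changes have no firm size.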
